A study of Homo sapiens with 6 samples.

Results

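The SLC25 family holds the mitochondrial carriers, small membrane proteins encoded in the nucleus that exchange nucleotides, phosphate, amino acids, carboxylates, cofactors and metals across the inner mitochondrial membrane. Its members were taken as the protein-coding genes of GENCODE release 44 whose symbol is SLC25A followed by a number, which gave 48 of 20020 protein-coding genes. Their binding by IGF2BP3 was read from IR-PAR-CLIP clusters, the stretches of the genome in which reads with T-to-C conversions pile up. A cluster was given to a gene when it overlapped an exon of that gene by 1 nt or more in the same orientation. Of the 48 members, 35 (72.9%) had a cluster in at least 1 of the 5 IGF2BP3 libraries, against 46.7% of all protein-coding genes.

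IGF2BP3 is an RNA-binding protein of the fetal and cancer-expressed IGF2BP family that binds mature mRNAs, mostly in their 3′UTRs, and is known as a factor that affects the stability and translation of its targets. In PAR-CLIP, cells incorporate 4-thiouridine into RNA, ultraviolet light crosslinks the modified uridines to bound protein, and crosslinked positions are read as C. RNase T1 cuts after G and RNase I cuts after any base, so both enzymes leave different fragments of the same bound RNA.

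All 6 libraries came from HCT116, a colorectal carcinoma line, here with the genotype label Tet-OsTIR1-PURO (an inducible plant F-box protein), given 100 µM 4-thiouridine for 15 h and crosslinked at 365 nm. The endogenous protein was immunoprecipitated with an antibody that, by the study's own tests, also recognises some of the paralog IGF2BP2. Libraries are named by enzyme and by concentration in the lysate and then on the beads, in U/µL: RNase I 0.05/0.05, RNase I 0.1/0.025, RNase I 0.05/0.025, RNase T1 1/1 and RNase T1 0.25/0.25, plus an IgG control treated with RNase I at 0.1/0.025. RNA of RNase I 0.05/0.05 and RNase T1 1/1 was electroeluted from the gel. That of the other IGF2BP3 libraries came from crushed gel. Between an electroeluted and a crushed-gel library of 1 enzyme, gel extraction, RNase concentration and depth cannot be told apart. RNase I 0.1/0.025 and RNase I 0.05/0.025 share the extraction and differ in lysate concentration and depth. With 1 library per condition there was no replicate and no test. Intervals are 95% intervals of the counts and cover counting error only.

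Cluster reads totalled 182448 in RNase T1 0.25/0.25, the shallowest IGF2BP3 library, and 2362467 in RNase I 0.05/0.05, the deepest. Levels are therefore given as CPM, the cluster reads of a gene per 1000000 cluster reads of its library. 1 read was worth 0.423 CPM in the deepest library and 5.48 CPM in the shallowest. The IgG library held 25 clusters with 324 reads, none on a member, and at that depth a count of 0, taken as up to 3 counts, allows up to 9259 CPM, so it sets no useful limit for single carriers. Of the epithelial marker list 6 of 7 genes had a cluster in an IGF2BP3 library, whereas none of 9 markers of blood, stromal, endothelial, liver and glial cells did. Among all protein-coding genes the share was 46.7%. CDX2 had a cluster in RNase T1 1/1 alone, at 4.32 CPM, and VIL1 had none.

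Windows around the strongest site of a carrier show the sequence there and need not be centred on a crosslinked base. For the 10 members with the highest mean CPM, except SLC25A32, the 30 nt around the mode of the cluster with the most reads are shown 5′ to 3′ on the transcript strand, in DNA letters of GRCh38 (hg38). Capitals mark 4 tetramers. CATT is among the motifs that the study reports from these libraries, as is the word CAGT, so neither is independent of the data. CATA was added with the results in view, and so was the word CATC.
SLC25A23, chr19:6441796-6441825, minus strand: catgggatcccagCATCcagatcctggatc
SLC25A36, chr3:140978423-140978452, plus strand: gaagaccCATAaaCATTCATTgtgttgaat
SLC25A3, chr12:98598616-98598645, plus strand: ctaaggttcgaattcaaacccagccaggtt
SLC25A5, chrX:119471028-119471057, plus strand: cttgtatgatgaaatcaagaagtacaCATA
SLC25A39, chr17:44319620-44319649, minus strand: aagtctaaagatgatgaacttctgcctggt
SLC25A6, chrX:1386545-1386574, minus strand: acacaccaggggaaccaagagaaccacgta
SLC25A1, chr22:19175616-19175645, minus strand: acagggtggcacccaccactctcaggacca
SLC25A22, chr11:791737-791766, minus strand: gtggtgcacacgcaagccccccggggtgct
SLC25A46, chr5:110762384-110762413, plus strand: cacatgtaacttggaatttccttCATCcct

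The modes of SLC25A3 and SLC25A5 lay in coding sequence and those of the other 7 genes in the 3′UTR, that of SLC25A39 so near the transcript's end that 8 nt of its window lie past the annotated 3′ end. Over the strongest cluster of each of the 35 members, 14 windows (40.0%) held at least 1 of the 4 tetramers, against 45.2% of the 9342 windows made in the same way for all protein-coding genes with a cluster. CATT stood in 9 of 35 (25.7%, background 17.6%) and CAGT in 0 of 35 (background 13.2%). Tetramers were searched on the transcript strand alone, and CATC can share its last base with the next word.

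A second set of windows is shown because all 5 libraries covered it. Such stretches, in which each IGF2BP3 library had a cluster over the same nucleotides, numbered 23 in 9 members, with a median length of 28 nt and a range of 4 to 68 nt. Of these stretches 21 lay in 3′UTRs and 2 in coding sequence. Over all protein-coding genes 2498 (12.5%) had such a stretch. Among genes with clusters in all 5 libraries, the stretches made up 4.62% of the covered nucleotides of members and 6.47% of those of all genes. One window of 30 nt at the middle of a stretch follows for each of 5 carriers.
SLC25A39, chr17:44319760-44319789, minus strand: cttacccaccccccaagttcaagaccaaat
SLC25A36, chr3:140979628-140979657, plus strand: tagtatttccCATTaacctacacactgatt
SLC25A5, chrX:119471131-119471160, plus strand: agactcctggctgtCAGTttctCAGTggca
SLC25A3, chr12:98601650-98601679, plus strand: actcttgcttaaggcaagagtttcagattt
SLC25A23, chr19:6441132-6441161, minus strand: gatccctgCATTtcaagcactacgccttcc

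The SLC25A39 stretch is the longest, with 68 nt, and the least covered library still had 97.7 CPM there, the sum of its clusters that touch the stretch. In the 22 windows that were read, 12 (54.5%) held one of the 4 tetramers, against 62.5% of 9362 such windows over all genes. CATT stood in 4 of 22 (18.2%, background 30.2%) and CAGT in 3 of 22 (13.6%, background 14.6%). CATT thus lay below its background here and above it in the first windows. Besides the 9 members with a common stretch, SLC25A33, SLC25A44 and SLC25A46 had clusters in all 5 libraries but at no nucleotide in common.

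Cluster reads were concentrated in a few carriers, by CPM that are not corrected for RNA levels. SLC25A23, SLC25A36, SLC25A3, SLC25A5, SLC25A39 and SLC25A6 together took 68.2, 71.2 and 71.5% of the members' CPM in the RNase I libraries, in the order given above, and 56.3 and 80.4% in RNase T1 1/1 and RNase T1 0.25/0.25. Clusters with a 30-nt run copied elsewhere in the genome held 97.7% of SLC25A6 reads, 93.3% of SLC25A5, 74.5% of SLC25A23 and 49.1% of SLC25A3. For SLC25A6 the copies include the entry of the same gene on the Y chromosome. The members summed to 2919 CPM (95% Poisson interval 2850–2988), 2456 (2348–2566) and 2763 (2638–2891) in the 3 RNase I libraries, and to 2003 (1922–2086) and 1765 (1577–1969) in the 2 RNase T1 libraries. The median member with a cluster stood at 33.4 CPM in RNase I 0.05/0.05, 68.5 in RNase I 0.1/0.025 and 47.7 in RNase I 0.05/0.025, against 32.2, 47.3 and 49.2 CPM for the median gene with a cluster. In RNase T1 1/1 and RNase T1 0.25/0.25 it stood at 38.0 and 82.2 CPM, against 39.8 and 98.7.

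**Figure D1:**
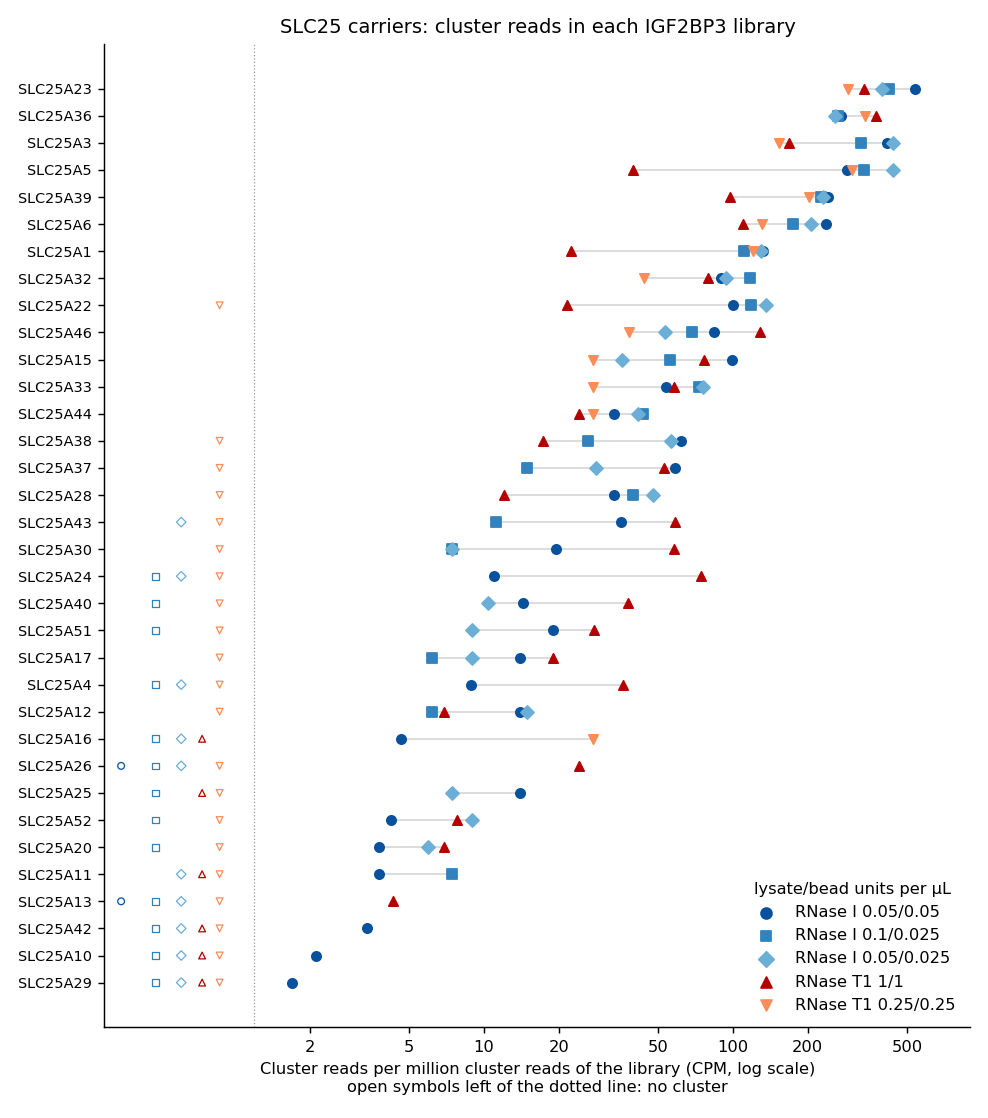
Cluster reads of 34 of the 35 carriers with a cluster, as CPM on a log axis, 1 symbol per IGF2BP3 library (blue RNase I, red and orange RNase T1) and genes ordered by their mean. SLC25A23 reached 539 CPM, while SLC25A26, SLC25A13, SLC25A42, SLC25A10 and SLC25A29 had a cluster in 1 library each. Open symbols left of the dotted line mark libraries with no cluster and have no value.

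A gene was called a target, after the study's methods, when 1 of its clusters had more than 10 CPM and more than 0.5 conversion events per read. By this rule 13 of 48 members (27.1%, Wilson interval 16.6–41.0) were targets in RNase I 0.05/0.05, against 21.9% of all protein-coding genes. The count was 13 in RNase I 0.1/0.025 (background 21.3%), 17 in RNase I 0.05/0.025 (background 22.0%), 13 in RNase T1 1/1 (background 19.7%) and 14 in RNase T1 0.25/0.25 (background 13.7%). The background lay below the interval of the members' share in RNase I 0.05/0.025 (23.4–49.6%) and RNase T1 0.25/0.25 (18.2–43.2%), and within it in the other libraries. In RNase T1 0.25/0.25, 10 CPM corresponds to 1.82 reads, against 23.6 reads in the deepest library, and all 14 members with a cluster were targets. In at least 1 library 21 members were targets (43.8%, background 29.5%).

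The members that were targets in all 5 libraries numbered 9, or 18.8% (Wilson interval 10.2–31.9), against 9.91% of all genes. They were SLC25A3, SLC25A5, SLC25A6, SLC25A15, SLC25A23, SLC25A33, SLC25A36, SLC25A39 and SLC25A46. This list spans several substrates and includes no carboxylate carrier. No cluster was found in any library on 13 members, SLC25A2, SLC25A14, SLC25A18, SLC25A21, SLC25A27, SLC25A31, SLC25A34, SLC25A35, SLC25A41, SLC25A45, SLC25A47, SLC25A48 and SLC25A53. They include the ADP/ATP translocase of the germ line (SLC25A31), the uncoupling-protein-like UCP4 and UCP5 (SLC25A27 and SLC25A14) and an ornithine carrier (SLC25A2). RNA levels were not measured in these libraries, so a gene that is little expressed and one that is expressed but not bound cannot be told apart.

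Carriers of adenine nucleotides and phosphate held the most reads of the 6 role groups in each library but RNase T1 1/1, with 1512, 1260 and 1494 CPM in the RNase I libraries and 764 and 877 CPM in RNase T1 1/1 and RNase T1 0.25/0.25. Of the 9 members of this group, 7 had a cluster and 4 were targets in all 5 libraries. The order of the groups turned without clusters that hold a run of 30 nt with an exact copy elsewhere in the genome. This group then had 259, 371, 362, 482 and 576 CPM in the 5 libraries in order, below the carriers of cofactors, other nucleotides and metals in each, with 785, 727, 760, 757 and 674 CPM.

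SLC25A23, a calcium-regulated ATP-Mg/phosphate carrier on chromosome 19, was the highest member by mean CPM. It had 539, 422 and 398 CPM in the RNase I libraries and 335 and 290 CPM in RNase T1 1/1 and RNase T1 0.25/0.25. All RNase I values lay above both RNase T1 values, and the highest was 1.85-fold the lowest. Over the 5 libraries 3.79% of its reads were assigned to coding sequence, and clusters covered 90.8% of its 3′UTR of 1911 nt in RNase I 0.05/0.05. There 1 cluster of 1210 nt took 967 of 1273 reads, whereas its strongest clusters in the RNase T1 libraries had 142 and 35 nt. Within this 3′UTR 1.80% of the words of 20 nt occur more than once, and 23.5% of the 30-nt runs in its clusters have an exact copy elsewhere in the genome. Clusters with such a run, among them that of 1210 nt with 16.8% of its runs copied, held 74.5% of the reads of SLC25A23. Without them it had 40.2, 195 and 110 CPM with RNase I and 187 and 269 CPM in RNase T1 1/1 and RNase T1 0.25/0.25, so it then lay below SLC25A36 in every library and its RNase I values no longer exceeded its RNase T1 values. Its relatives SLC25A24 and SLC25A25 carry the same class of substrate and had 11.01 and 13.97 CPM in RNase I 0.05/0.05. In RNase T1 1/1 SLC25A24 had 74.3 CPM and SLC25A25 no cluster, and SLC25A41, which lacks the calcium-regulated part, had no cluster.

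SLC25A5 encodes ANT2, the ADP/ATP translocase of proliferating cells, which exports ATP from the matrix. It had 287, 337 and 441 CPM in the RNase I libraries, 39.8 CPM in RNase T1 1/1 and 301 CPM in RNase T1 0.25/0.25. RNase T1 1/1 alone stood apart, 11.1-fold under the highest library, while the second RNase T1 library lay among the RNase I values. A cluster of 269 nt across the stop codon held 511 of its 678 reads in RNase I 0.05/0.05, and clusters covered 88.5% of its 338-nt 3′UTR. SLC25A5 has processed pseudogenes, and 93.3% of its reads lay in clusters in which at least 1 run of 30 nt has an exact copy elsewhere. Without those clusters it had 10.2, 0 and 31.3 CPM with RNase I, 29.4 CPM in RNase T1 1/1 and 60.3 CPM in RNase T1 0.25/0.25, and RNase T1 1/1 no longer stood apart. The 269-nt cluster was left out whole, with 57.9% of its 30-nt runs copied.

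The other ADP/ATP translocases differed in level. SLC25A6 (ANT3) had 237, 174 and 206 CPM with RNase I and 110 and 132 CPM in RNase T1 1/1 and RNase T1 0.25/0.25. It lies in the pseudoautosomal region, its clusters were listed on both sex chromosomes with nearly the same counts (559 reads at each in RNase I 0.05/0.05), and only the X copy was counted. SLC25A4 (ANT1), the isoform of heart and skeletal muscle, had 8.89 CPM in RNase I 0.05/0.05 and 36.3 CPM in RNase T1 1/1, and no cluster in the 3 crushed-gel libraries.

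SLC25A3, the phosphate carrier that supplies ATP synthase, differed from the other top members in where it was bound. Its levels were 416, 326 and 441 CPM with RNase I and 169 and 153 CPM with RNase T1. RNase I values all exceeded RNase T1 values. Clusters with a copied run held 49.1% of its reads, and without them the levels were 174, 175 and 213 CPM with RNase I and 150 and 153 CPM with RNase T1. Of its 1763 reads over the 5 libraries 67.6% lay in clusters assigned to coding sequence, from 53.6% in RNase T1 0.25/0.25 to 79.7% in RNase I 0.05/0.025. Its annotated 3′UTR is 4839 nt long, yet the read-weighted median position of its 3′UTR clusters was 128 nt past the stop codon, and clusters covered 10.2% of that 3′UTR in RNase I 0.05/0.05.

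**Figure D2:**
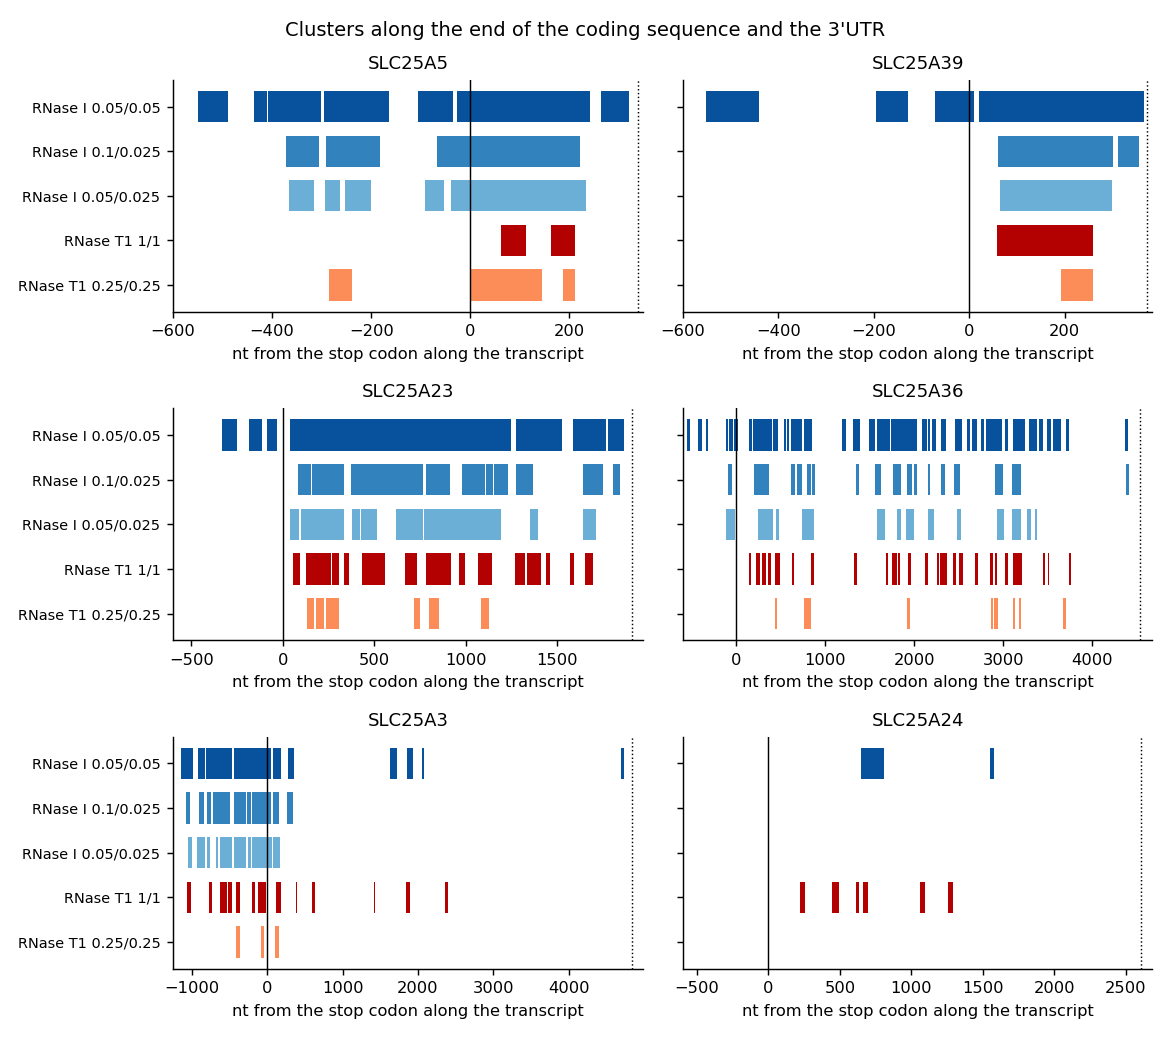
Clusters of 6 carriers along the transcript, as distance in nt from the stop codon (solid line at 0, dotted line at the annotated 3′ end), 1 row per IGF2BP3 library; bars are the nucleotides under clusters, whatever their reads. SLC25A5 and SLC25A39 are covered in their short 3′UTRs, SLC25A36 at many separate sites, SLC25A3 mainly before the stop codon, and SLC25A24 in the electroeluted libraries alone.

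Carriers of cofactors, other nucleotides and metals formed the largest group, and all 13 had a cluster in some library. They summed to 815, 741 and 787 CPM with RNase I and to 789 and 674 CPM with RNase T1, and led in RNase T1 1/1. SLC25A36 and SLC25A39 made up most of it.

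SLC25A36, a pyrimidine nucleotide carrier, had 273, 264 and 256.4 CPM with RNase I and 376 and 340 CPM with RNase T1. Both RNase T1 values exceeded all 3 RNase I values. The intervals of RNase T1 0.25/0.25 (261–436) and of RNase I 0.05/0.05 (252–294) overlap. It had 37 clusters in RNase I 0.05/0.05, spread over its 3′UTR of 4542 nt and its coding exons, and no single cluster held more than 21.0% of its reads in any library. None of its clusters contained a run of 30 nt copied elsewhere, and 81 of the 103 over the 5 libraries were long enough to be checked. SLC25A33, a second pyrimidine nucleotide carrier, had 53.8, 73.4 and 76.0 CPM with RNase I and 57.9 and 27.4 CPM with RNase T1, the last from 5 reads.

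SLC25A39, the mitochondrial glutathione carrier, had most of its reads in 1 cluster. It had 240, 225 and 231 CPM with RNase I, 97.7 CPM in RNase T1 1/1 and 203 CPM in RNase T1 0.25/0.25. The 3 RNase I values lay within each other's counting intervals, and both RNase T1 values lay below them, that of RNase T1 0.25/0.25 with an interval (143–280) that includes them. From 83.3 to 100% of its reads in a library came from a single 3′UTR cluster, which was 347 nt long in RNase I 0.05/0.05, where clusters covered 96.0% of the 373-nt 3′UTR, and 68 nt in RNase T1 0.25/0.25. No copied run of 30 nt was found. Its paralog SLC25A40 had 14.4 and 10.4 CPM in RNase I 0.05/0.05 and RNase I 0.05/0.025, 38.0 CPM in RNase T1 1/1 and no cluster in the other 2 libraries.

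The remaining cofactor and metal carriers were lower. SLC25A32, which carries folate and FAD, had 89.3, 117, 93.9, 79.5 and 43.8 CPM in the order of the libraries above. All of its clusters also overlap an unnamed protein-coding gene on the same strand, so its reads cannot be told apart from that gene's. The mitoferrins SLC25A37 and SLC25A28, which import iron, had 58.4 and 33.4 CPM in RNase I 0.05/0.05 and no cluster in RNase T1 0.25/0.25. SLC25A51, the NAD carrier, had 19.0, 8.95 and 27.7 CPM in RNase I 0.05/0.05, RNase I 0.05/0.025 and RNase T1 1/1. Clusters with a copied run held 57.8% of its reads, and without them it had 8.89, 0 and 12.1 CPM in these libraries. Its close paralog SLC25A52 did not exceed 8.95 CPM. Every run of 30 nt in the SLC25A52 clusters has a copy elsewhere, and in RNase I 0.05/0.025 both genes had a cluster of 53 nt with 6 reads, so the reads of these paralogs cannot be told apart there.

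Of the 10 carriers of amino acids and S-adenosylmethionine 8 had a cluster, and the group had 310, 250 and 285 CPM with RNase I against 175 and 54.8 CPM with RNase T1. SLC25A22, a glutamate carrier, had 99.9, 118 and 136 CPM with RNase I, 21.6 CPM in RNase T1 1/1 and no cluster in RNase T1 0.25/0.25, where 3 reads would be 16.4 CPM. SLC25A15, the ornithine carrier of the urea cycle and the one target of this group in all 5 libraries, had 99.0, 56.0 and 35.8 CPM with RNase I and 76.9 and 27.4 CPM with RNase T1. Its RNase I and RNase T1 values overlapped. Clusters with a copied run held 34.8% of its reads. Without them it had 44.9, 43.6 and 35.8 CPM with RNase I and the same RNase T1 values. All of its reads lay in its 3′UTR of 2793 nt, with a median position 1911 nt past the stop codon.

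Among carboxylate carriers SLC25A1 alone was a target. It exports citrate for lipid synthesis, and had 132, 111 and 130 CPM with RNase I, 22.5 CPM in RNase T1 1/1 and 121 CPM in RNase T1 0.25/0.25. RNase T1 1/1 alone was low, and RNase T1 0.25/0.25 exceeded it by 5.37-fold (2.90–9.85). The 2-oxoglutarate/malate carrier SLC25A11 and the dicarboxylate carrier SLC25A10 had 3.81 and 2.12 CPM in RNase I 0.05/0.05, and SLC25A21 had none. SLC25A46, an outer membrane member linked to mitochondrial dynamics, had 84.2, 68.5 and 53.7 CPM with RNase I and 129 and 38.4 CPM in RNase T1 1/1 and RNase T1 0.25/0.25. In the uncoupling-protein-like and acylcarnitine group SLC25A30 reached 57.9 CPM in RNase T1 1/1 and 19.5 CPM in RNase I 0.05/0.05, SLC25A20, the carnitine-acylcarnitine carrier, did not exceed 6.91 CPM, and none was a target.

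The enzymes were compared within the electroeluted pair, as the ratio of CPM in RNase I 0.05/0.05 to CPM in RNase T1 1/1, for the 23 members with at least 50 reads over both. The median log2 ratio was 0.17 for members and 0.06 for the 5900 protein-coding genes with as many reads, with 13 members above 1 and 10 below. More than 4-fold higher with RNase I were 3 members (13.04%, background 9.08%), and more than 4-fold higher with RNase T1 were 2 (8.70%, background 2.27%). Both Wilson intervals, 4.54–32.1% and 2.42–26.8%, are wide, and the second begins just above its background.

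The highest ratios belonged to SLC25A5 (7.22, interval 5.35–9.96), SLC25A1 (5.90, 3.95–9.17), SLC25A22 (4.62, 3.06–7.29), SLC25A38, the glycine carrier of heme synthesis (3.58, 2.23–6.03), and SLC25A28 (2.76, 1.55–5.29). The ratio of SLC25A5 turned to 0.346 when only clusters without a copied run of 30 nt were used, from 24 reads against 34, and that of SLC25A1 fell to 2.86. SLC25A38 turned as well, to 11.01 CPM from 26 reads against 17.3 CPM from 20 reads. At the other end RNase T1 1/1 exceeded RNase I 0.05/0.05 by 6.75-fold (4.31–10.9) for SLC25A24, by 4.08-fold (2.36–7.26) for SLC25A4, by 2.97-fold (2.01–4.43) for SLC25A30, by 2.64-fold (1.65–4.26) for SLC25A40 and by 1.65-fold (1.18–2.30) for SLC25A43, a member of unassigned substrate. In these 5 no copied run was found, but clusters under 30 nt could not be checked. In RNase T1 1/1 the strongest cluster of SLC25A4 had 28 nt, with 35 of its 42 reads, and that of SLC25A40 had 27 nt.

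**Figure D3:**
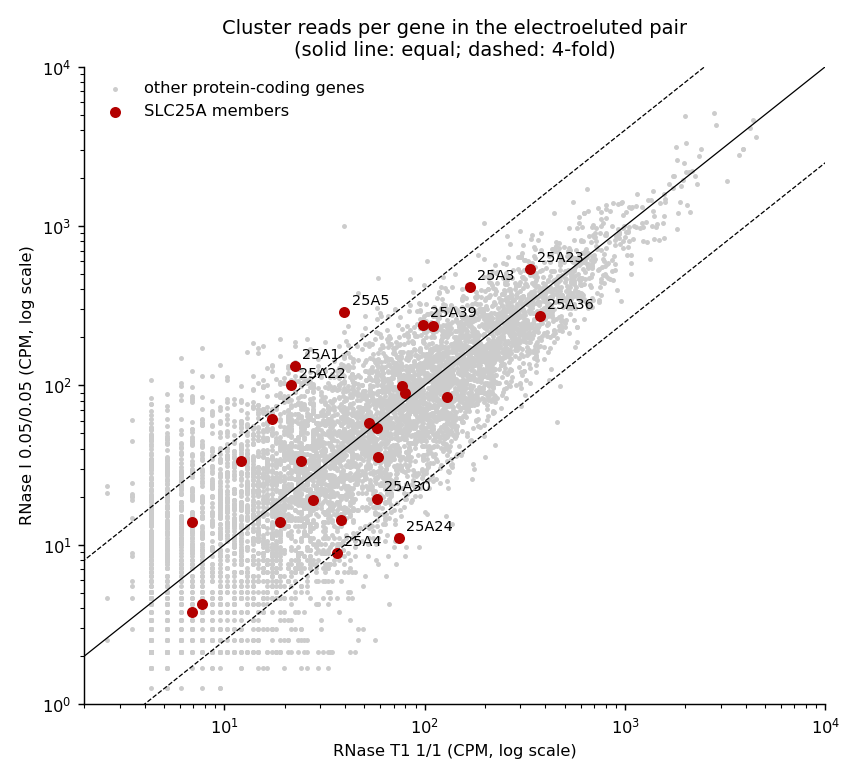
CPM of each gene in RNase I 0.05/0.05 (vertical, log axis) against RNase T1 1/1 (horizontal, log axis), for genes with a cluster in both; red points are SLC25A members and grey points other protein-coding genes. SLC25A5, SLC25A1 and SLC25A22 lie above the upper 4-fold line, and SLC25A24 and SLC25A4 below the lower one.

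The crushed-gel libraries gave other values for the same carriers. For SLC25A5 the ratio to RNase T1 0.25/0.25 was 1.12 (0.835–1.52) with RNase I 0.1/0.025 and 1.46 (1.09–1.99) with RNase I 0.05/0.025, and for SLC25A1 it was 0.919 (0.571–1.54) and 1.08 (0.668–1.80). SLC25A22 was 7.19-fold (lower limit 5.73) and 8.25-fold (lower limit 6.58) higher with RNase I against a floor of 3 reads in the RNase T1 library, where it had no cluster. Reads outside called clusters are not listed, so these limits hold for cluster reads alone. SLC25A24 and SLC25A4 had no cluster in any crushed-gel library, so no ratio was formed. Gel extraction, RNase concentration and depth all differ between the pairs and cannot be told apart. The crushed-gel libraries had 803490, 670712 and 182448 cluster reads, fewer than either electroeluted library.

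Over all 5 libraries, 9 of the 25 members compared had all 3 RNase I values above both RNase T1 values (36.0%, background 22.6%), and 2 had both RNase T1 values above all RNase I values (8.0%, background 9.91%). The 9 were SLC25A3, SLC25A6, SLC25A22, SLC25A23, SLC25A28, SLC25A32, SLC25A38, SLC25A39 and SLC25A44. Without copied clusters 6 of these 9 kept the order, and SLC25A6, SLC25A23 and SLC25A38 did not. For SLC25A6 the filter itself decided this. All of its 30-nt runs have a copy, the gene being listed on both sex chromosomes, so no RNase I cluster of SLC25A6 was left.

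The composition of the 3′UTR moved with the enzyme ratio. Across the 23 members Spearman's rho of the log2 ratio was −0.60 with the percent of A and U in the 3′UTR, 0.55 with the percent of G and −0.46 with its length. Across 5865 genes with the same reads the values were −0.50, 0.49 and −0.35. SLC25A22 and SLC25A1, with 28.5 and 26.8% G, were among the highest ratios, and SLC25A24 and SLC25A40, with 15.8 and 15.3%, among the lowest. SLC25A5, with 15.7% G, had the highest ratio, and SLC25A4, with 21.5% G, had a ratio of 0.245. Without copied clusters the ratio of SLC25A5 was 0.346 and that of SLC25A1 2.86. SLC25A38, with 23.7% G, and SLC25A23, with 19.9% G, were then also lower with RNase I 0.05/0.05 than with RNase T1 1/1. So was SLC25A15, with 22.5% G, at 44.9 against 76.9 CPM. SLC25A6, with 26.4% G, had no cluster left in RNase I 0.05/0.05, since all of its 30-nt runs have a copy. The correlations use all clusters and were not computed without copied ones. Genes share libraries and length with composition, and the part of each was not tested.

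RNase I covered more of the 3′UTR. Of the 23 members with 3′UTR clusters in both electroeluted libraries, 21 (91.3%) were covered more broadly in RNase I 0.05/0.05, against 94.7% of 6283 genes. The median member was covered over 20.2% of its 3′UTR with RNase I and 6.99% with RNase T1, below the 26.7 and 8.34% of all genes. SLC25A39 went from 96.0 to 54.4%, SLC25A1 from 88.9 to 16.6% and SLC25A22 from 52.4 to 6.88%. SLC25A24 went the other way, with 7.51 against 8.43%. RNase I 0.05/0.05 had 2362467 cluster reads and RNase T1 1/1 had 1157194, and the part of depth in coverage was not tested.

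**Figure D4:**
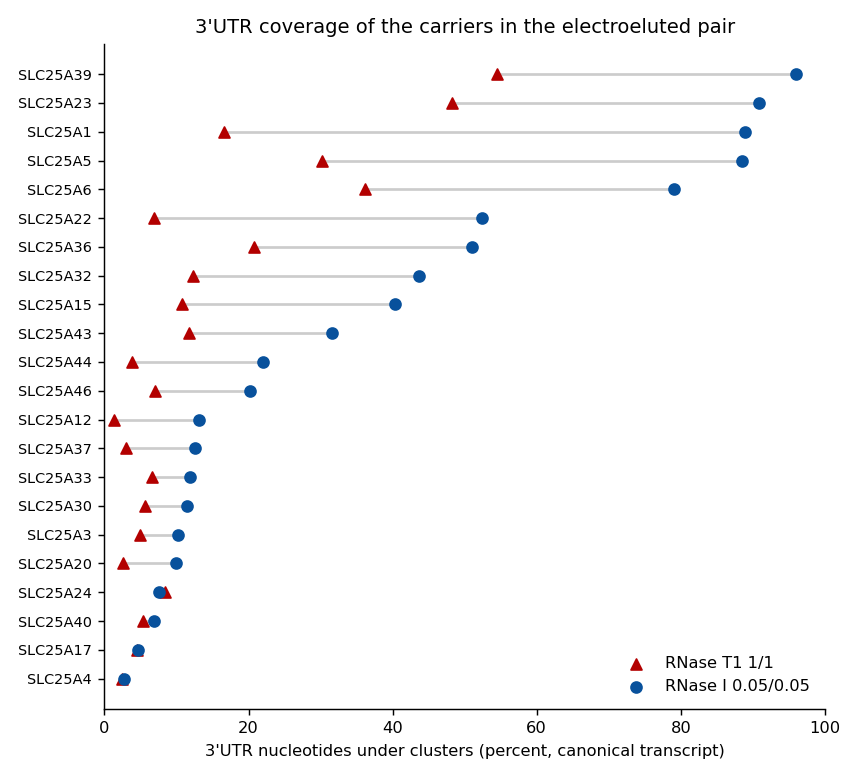
Percent of each canonical 3′UTR under clusters in RNase T1 1/1 (red triangles) and RNase I 0.05/0.05 (blue circles) for 22 of the 23 members with 3′UTR clusters in both. SLC25A39 has the broadest coverage with either enzyme, and SLC25A24 is covered more with RNase T1.

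The share of the members' reads in 3′UTR clusters was 76.2% (Wilson interval 75.2–77.2) in RNase I 0.05/0.05, 82.2% (80.4–83.8) in RNase I 0.1/0.025 and 77.0% (75.04–78.9) in RNase I 0.05/0.025. It was 83.5% (82.0–85.0) in RNase T1 1/1 and 91.9% (88.4–94.4) in RNase T1 0.25/0.25. For all protein-coding genes the shares were 79.1, 80.7, 79.4, 85.5 and 85.8% in the same order. Clusters across the stop codon carried 11.1, 13.7 and 14.8% of the members' reads in the RNase I libraries, against 10.0, 6.001 and 7.32% for all genes, and 0.431 and 0% in the RNase T1 libraries, against 1.033 and 2.05%. The clusters across the stop codon of SLC25A5 held 511, 231 and 254 of the RNase I reads, out of 763, 271 and 275. Reads of coding sequence made up 22.6% of the members' total in RNase I 0.05/0.05 and 14.5% in RNase T1 1/1, and apart from SLC25A3 they were most frequent, among members with at least 50 reads over the 5 libraries, in SLC25A51 (65.1%), SLC25A28 (58.6%), SLC25A17, a peroxisomal cofactor carrier (48.5%), and SLC25A38 (44.9%).

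Cluster shape followed the enzyme, as in all genes. The median member cluster had 58, 56.5 and 55 nt in the RNase I libraries and 35 and 43 nt in RNase T1 1/1 and RNase T1 0.25/0.25. With RNase T1, 94.1 and 94.3% of them ended in G, and with RNase I, 13.5, 13.2 and 10.6% did. CAUU was present in 38.2% of the member clusters of RNase I 0.05/0.05 (32.5–44.4) and in 32.9% of those of RNase T1 1/1 (25.9–40.7), against 39.5 and 35.2% over all genes. CAGU, which holds a G, was present in 33.5% (27.9–39.5) with RNase I 0.05/0.05 and in 15.1% (10.3–21.7) with RNase T1 1/1, against 34.9 and 11.8% over all genes.

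Of the 35 member clusters of RNase T1 0.25/0.25, 21 overlapped a cluster of each of the other 4 libraries by at least 1 nt. That is 60.0%, against 72.1% of the 11438 clusters of this library on all protein-coding genes. RNase I 0.05/0.05 overlapped 33 of these 35 and RNase T1 1/1 overlapped 25. In the opposite direction 23 of the 251 member clusters of RNase I 0.05/0.05 met a cluster of RNase T1 0.25/0.25. The rank order of the carriers was closest between RNase I 0.05/0.05 and RNase I 0.1/0.025 (Spearman's rho 0.92 over 33 members with a cluster in either) and farthest between RNase I 0.05/0.025 and RNase T1 1/1 (0.50 over 30), given as a description of libraries of unequal depth.

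Copied sequence bears on several of these levels. SLC25A6 had 140 and 139 reads at its copies in RNase I 0.1/0.025 and equal counts at both in the other libraries, so a cluster with a copied run can hold reads of the copy. Without clusters that contain an exact copy of 30 nt, the members summed to 1462, 1469 and 1512 CPM with RNase I and to 1689 and 1414 CPM in RNase T1 1/1 and RNase T1 0.25/0.25, and the RNase I libraries no longer stood above both RNase T1 libraries. Clusters under 30 nt could not be flagged, and a longer cluster was left out whole for 1 copied run. The median member cluster was longer with RNase I, so this change does not measure the reads that came from copies. SLC25A36 and SLC25A39 kept their full values, SLC25A23 fell to 40.2 CPM in RNase I 0.05/0.05, where its 1210-nt cluster was left out, and was at 187 CPM in RNase T1 1/1, and SLC25A5 fell to 10.2 and 29.4 CPM in the same libraries.

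**Figure D5:**
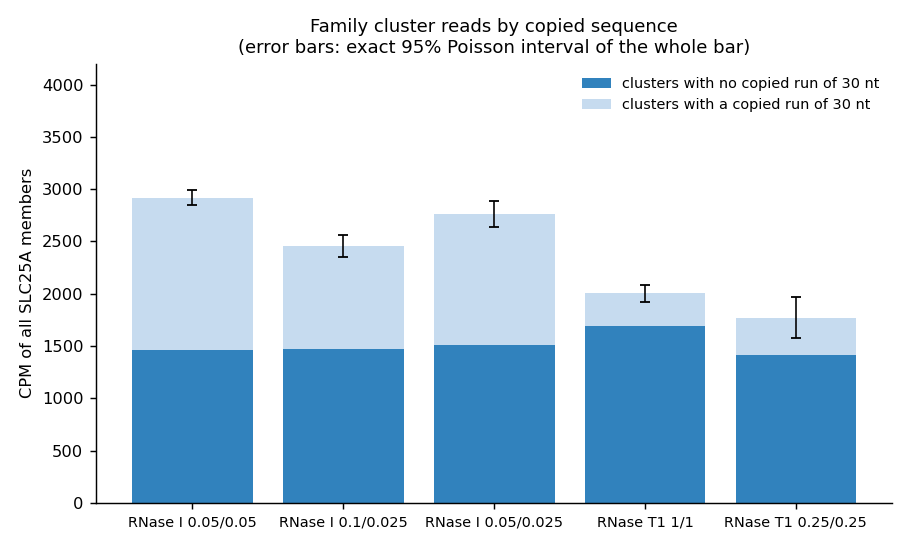
CPM of all SLC25A members in each IGF2BP3 library, split into clusters without (dark) and with (light) a run of 30 nt that has an exact copy elsewhere in the genome; error bars are the exact 95% Poisson interval of the whole bar. The dark parts lie between 1414 and 1689 CPM, with RNase T1 1/1 the highest.

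Genes that work with the carriers were read from fixed lists. Of all protein-coding genes 46.7% had a cluster in at least 1 IGF2BP3 library and 9.91% were targets in all 5. Of 5 SLC25 proteins that bear other symbols, 2 had clusters and the 3 classical uncoupling proteins had none. MTCH1, an outer membrane protein insertase, had 224, 246 and 385 CPM with RNase I and 118 and 252 CPM in RNase T1 1/1 and RNase T1 0.25/0.25, the range of the top carriers. Of 7 genes of carrier import through the TIM22 translocase 6 had a cluster and 2 were targets in all 5 libraries, TIMM22, the channel, with 41.7 to 56.2 CPM, and TOMM70, the carrier receptor of the outer membrane, with 70.1 to 150 CPM. All 3 outer membrane channels of the VDAC family had clusters in every library, VDAC2 with 113 to 271 CPM, and 2 were targets in all 5. Of 14 other inner membrane transporters 10 had a cluster and 1, the serine transporter SFXN1, was a target in all 5 libraries.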

How the data were processed

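IGF2BP3 IR-PAR-CLIP and 1 IgG control were sequenced from HCT116 cells, 1 library per condition. The deposited tables list clusters called per library with PARalyzer, with counts of reads and conversion events that the authors did not normalise, and a mode score, deposited as a fraction and not used here. Per the labels and methods the authors trimmed reads to 18–45 nt (Trimmomatic 0.30), aligned them to GRCh38.p13 (Bowtie 0.12.7, up to 3 mismatches) and removed duplicates by UMI (UMI-tools 1.1.1). Conversion by bcl2fastq 2.20.0.422 is named in the submitters' processing notes. The methods write another lysate concentration for RNase I 0.1/0.025, and the label was followed. Gel extraction of the IgG library is not given in the sources used here.

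Clusters were assigned to GENCODE release 44 exons on the same strand by an overlap of at least 1 nt. The sequence of all 244645 clusters equals the reference at its coordinates. CPM divides reads by all cluster reads of the library. Regions and 3′UTR lengths are those of the canonical transcript, 3′UTR before coding sequence. Copied runs are words of 30 nt with another exact match in the genome on either strand. Levels without copies leave out each cluster with any copied run as a whole. Clusters under 30 nt could not be flagged, and shorter or inexact copies were not searched. Intervals are exact Poisson (CPM), Wilson (shares) and Clopper-Pearson based (ratios), at 95%. A gene at 0 in 1 library of a pair was set to 3 counts. No p-value was computed. Scripts were tested on simulated data and used Python 3.11.15, pandas 2.3.3, numpy 2.4.6, scipy 1.17.1, pysam 0.24.0, matplotlib 3.10.9 and bedtools 2.31.1.

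Members, lists and thresholds were chosen with earlier results of these data known. Named by rule were the 10 members with the highest mean CPM, targets in all 5 libraries, the 5 highest and 5 lowest enzyme ratios with at least 50 reads, and members without a cluster. Other members were named after their values were seen. Alternatives changed the target thresholds, CPM denominator, region order, transcripts, fold, overlap, and the handling of shared exons and copied sequence. Sequences on chromosome 8 are not shown. The values of 1 member enter all counts and sums and are not reported here, nor drawn gene by gene.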

Additional observations from a re-analysis of the deposited data

Results flagged for a closer look

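SLC25A33 differed in direction between the gel extractions. RNase I over RNase T1 was 0.928 (0.685–1.27) in the electroeluted pair, and 2.68 (1.09–8.56) and 2.77 (1.11–8.91) in the crushed-gel pairs with RNase I 0.1/0.025 and RNase I 0.05/0.025. The crushed-gel pairs share the 5 reads of RNase T1 0.25/0.25, and the difference was not tested.

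Signal outside the counted exons was also present. Clusters between annotated exons of members summed to 85.9, 58.5 and 43.2 CPM in RNase I 0.05/0.05, RNase I 0.1/0.025 and RNase I 0.05/0.025 and to 53.6 CPM in RNase T1 1/1, with none in RNase T1 0.25/0.25 or IgG. SLC25A51 held 177, 34, 17 and 62 of these reads and SLC25A33 the other 26, 13 and 12 in the RNase I libraries. Clusters on SLC25A pseudogenes summed to 79.2, 6.22, 41.7 and 22.5 CPM in the same order of libraries. SLC25A3P2 had the most, 92 reads in RNase I 0.05/0.05. The IgG library had none of either, but its 324 reads allow up to 9259 CPM.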

How the results depend on the processing

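No paired analysis was possible because each condition had 1 library, and for the same reason no replicate could be left out. Over the alternatives, 85 of 143 summary values and 37 of 39 values of named carriers moved by less than their counting interval, or for counts by less than 1.5 times. The cause of the other changes was not tested. Counts of targets follow the thresholds and depth, and the shallow RNase T1 0.25/0.25 limits every statement on all 5 libraries.

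Targets numbered 21, 20 and 22 in RNase I 0.05/0.05, RNase I 0.1/0.025 and RNase T1 1/1 above 5 CPM. Above 20 CPM they were 4 in RNase T1 1/1 and 4 in all 5 libraries. Above 0.25 events per read there were 23 in RNase T1 1/1. Above 0.75 events there were 8 in RNase I 0.05/0.05, 8 in RNase I 0.05/0.025, 5 and 7 in RNase T1 1/1 and RNase T1 0.25/0.25, and 3 in all 5. With at least 20 reads per cluster there were 8 in RNase I 0.1/0.025, 9 in RNase I 0.05/0.025, 4 and 2 in the RNase T1 libraries and 1 in all 5.

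In the order of libraries used above, family CPM was 3443, 2904, 3318, 2386 and 2116 with reads on protein-coding exons as the denominator. Clusters on exons of a single gene gave 2827 and 2339 in the first 2 libraries. The alternatives with both copies of SLC25A6, with no copied run and with features of every transcript were chosen after seeing the data. Both copies of SLC25A6 gave 3155, 2629, 2968 and 2113 CPM in the first 4 libraries. Clusters with no copied run gave 1462, 1469, 1512, 1689 and 1414 CPM, 3′UTR shares of 79.6, 86.1 and 85.6% in RNase I 0.05/0.05, RNase I 0.1/0.025 and RNase T1 1/1, 1 carrier over 4-fold higher with RNase I, and the reversed ratio of 0.346 for SLC25A5. They also turned the order of the role groups given above. Features of every transcript gave 3′UTR shares of 88.4, 93.0, 91.9, 90.1 and 96.6%. Coding sequence before 3′UTR gave 65.1, 68.4 and 62.2% in the RNase I libraries.

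At 2-fold, 8 carriers were higher with RNase I and 4 with RNase T1. Under a reciprocal overlap of at least 50% of each cluster, 0 clusters of RNase T1 0.25/0.25 met all the other libraries. With the strongest cluster per gene, CAUU was in 60.6, 48.0 and 48.3% of clusters in RNase I 0.05/0.05, RNase I 0.05/0.025 and RNase T1 1/1, and CAGU in 38.1 and 48.0% in RNase I 0.1/0.025 and RNase I 0.05/0.025. Above 10 CPM, CAUU was in 58.7 and 52.3% in the first 2 libraries and CAGU in 56.5, 38.5, 42.9 and 23.9% in the first 4.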
